A study of Mus musculus with 4 samples.

Results

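The integrins and cadherins described here are the 36 genes that carry the symbols of 12 integrin alpha subunits, 7 integrin beta subunits and 17 cadherins, out of 24421 genes counted. They were chosen by name and compared between DPPIV- and DPPIV+ fibro-adipogenic progenitors (FAPs), the mesenchymal stromal cells of skeletal muscle. The libraries came from 2 wild-type mice, here called mouse 1 and mouse 2, and each mouse gave 1 DPPIV- and 1 DPPIV+ library. Both mice had received the CSF1R inhibitor PLX73086 in their diet for 3 weeks, which removes macrophages, and then regular diet for 3 days, so that there was no untreated group. The labels give neither the age nor the sex of these mice. They name tibialis anterior as the tissue, whereas the protocol text describes muscle of both hindlimbs. Cells were sorted as PI- CD31- CD45- Sca1+ and then by DPPIV, the surface peptidase encoded by Dpp4.

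Integrins are heterodimers of 1 alpha and 1 beta subunit that bind cells to matrix proteins or to receptors on other cells, and the alpha subunit largely sets the ligand. Cadherins join cells of a like kind through calcium-dependent contacts and are anchored to actin by catenins. Fibroblasts are known for integrins that bind collagen and fibronectin and for cadherin-11, whereas cadherin-5 marks endothelium, cadherin-15 myogenic cells and cadherin-1 epithelium.

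The libraries held between 18240110 and 20879405 counts. Dpp4 was measured at 89.8 and 39.7 CPM (counts scaled to library size, TMM-adjusted) in the DPPIV- libraries of mouse 1 and mouse 2 and at 728 and 575 CPM in the DPPIV+ libraries, a log2 difference of 3.41 ± 0.08 (SE). The libraries therefore followed their labels, although the DPPIV- library of mouse 1 held 2.26-fold more Dpp4 than that of mouse 2. All 7 FAP markers examined were present (2 called higher, 4 lower), with Pdgfra at between 21129 and 34676 reads. Because these are bulk libraries of sorted cells, fewer cells of a type and less RNA per cell cannot be told apart in any value below.

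The main differences between the groups were in a few members. Itgb7 (integrin beta7), Cdh9 and Itga2 were higher in DPPIV+ FAPs, at 12.6-fold, 5.46-fold and 3.45-fold in the fit. Cdh11, Itga8 and Cdh19 were lower, with levels 7.27-fold, 4.69-fold and 3.74-fold higher in DPPIV- FAPs. The most abundant beta subunits, Itgb1 and Itgb5, and the alpha subunit Itgav did not pass the test.

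Of the 36 members, 22 reached 2 CPM in at least 2 libraries and were tested, 16 of them integrins and 6 cadherins. By the edgeR quasi-likelihood test with the mouse in the model, 7 members were higher in DPPIV+ FAPs, 9 were lower and 6 did not pass an adjusted p of 0.05. Over all 11588 genes tested, 33.0% were called in either direction, 15.9% as higher and 17.2% as lower. The median log2 difference of the tested members was 0.01, and that of all genes tested was 0.00. Cdh9 passed the level filter only through its DPPIV+ libraries, so its call was favoured by the filter, and the counts over tested members describe those 22 genes and not all 36. DESeq2, the test of the study's methods, called 6 members higher and 5 lower, against 16.6% of all genes in either direction. The 16 members called by edgeR had the same direction in both mice. Both DPPIV+ libraries lay above both DPPIV- libraries for 9 of the 22 tested members and below them for 8. The groups overlapped for 5. Groups without overlap were not limited to the calls, as Itgav, Cdh2 and Itgb1 had them too. The share of all genes without overlap was not computed. Because edgeR found no spread beyond its trend, the adjusted p-values of abundant genes are very small, and they rest on 2 mice.

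**Figure D1:**
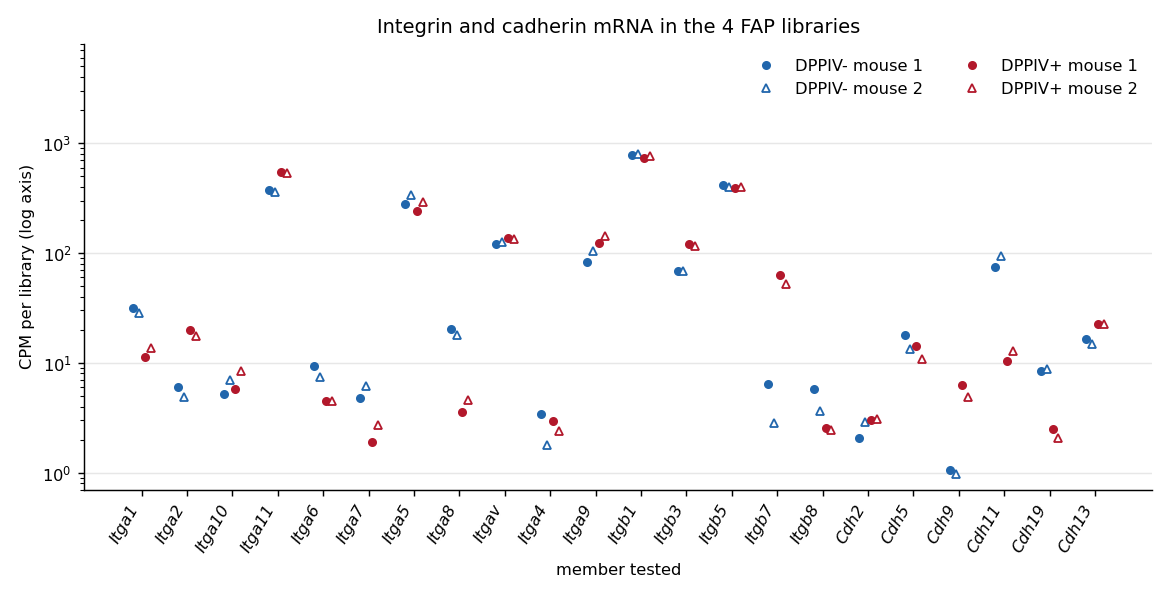
CPM (log axis) of the 22 tested members in each library, with circles for mouse 1, triangles for mouse 2, blue for DPPIV- and red for DPPIV+ FAPs. The groups lie far apart for Itgb7, Cdh11, Itga8 and Cdh9, whereas Itgb1 and Itgb5 keep nearly the same level in the 4 libraries.

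**Figure D2:**
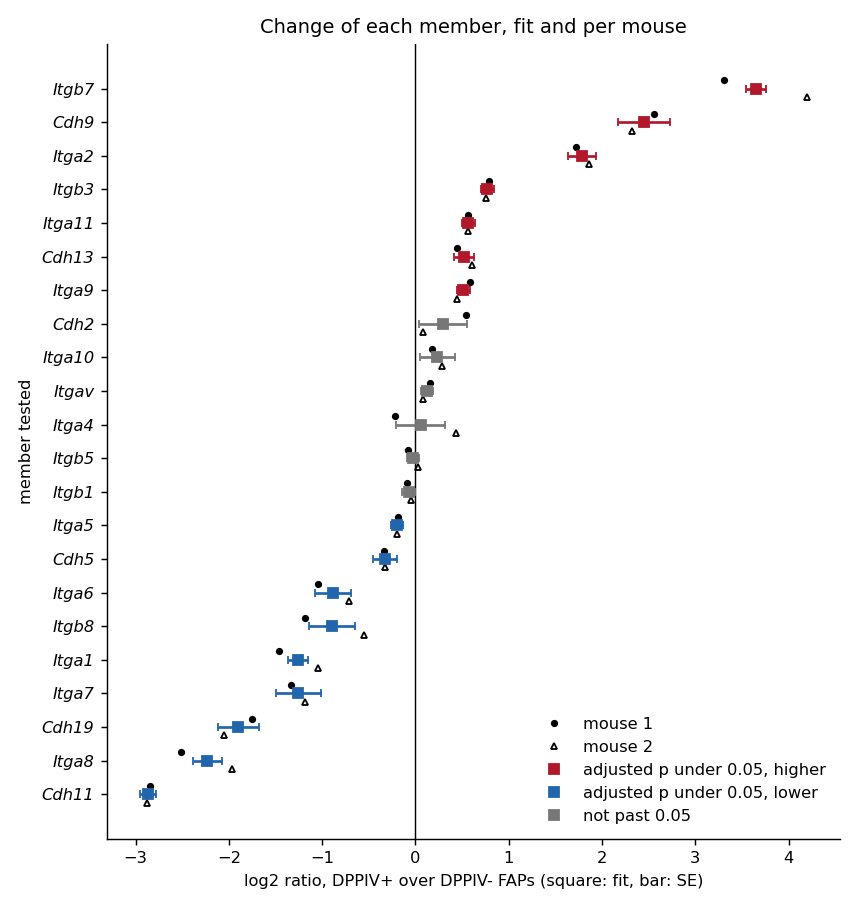
Log2 ratio of DPPIV+ over DPPIV- FAPs for the 22 tested members, as the fitted value (square) with its standard error (bar) and as the ratio within mouse 1 (circle) and mouse 2 (triangle). Fitted values run from -2.86 for Cdh11 to 3.65 for Itgb7, and Itga4 is the member whose mice lie farthest on opposite sides of 0.

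The collagen-binding alpha subunits all pair with beta1. Itga1, whose product prefers basement membrane collagen, was measured at 31.5 and 28.5 CPM in the DPPIV- libraries of mouse 1 and mouse 2 and at 11.4 and 13.8 CPM in the DPPIV+ libraries. Itga2, whose product prefers fibrillar collagen, was measured at 6.02 and 4.86 CPM in DPPIV- FAPs and at 19.9 and 17.6 CPM in DPPIV+ FAPs. For each gene every library of one group lay above every library of the other, and the genes moved in opposite directions. Itga1 fell by 1.26 ± 0.11 on the log2 scale (SE, edgeR adjusted p = 6.66e-30, DESeq2 adjusted p = 1.27e-08). Itga2 rose by 1.79 ± 0.15 (edgeR adjusted p = 1.66e-31, DESeq2 adjusted p = 3e-11). Expressed per kilobase of exon (RPKM), the mean level of Itga1 was 1.61 in DPPIV- and 0.676 in DPPIV+ FAPs, and that of Itga2 was 0.763 and 2.63. The order of the genes thus turned around between the groups, in both mice.

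These genes are neighbours. In the GENCODE M21 annotation of the mm10 genome, Itga2 lies on the minus strand at chr13:114833081-114932100 and Itga1 on the same strand at chr13:114953096-115101964, with 20995 bases between them. Pelo, a gene for a ribosome rescue factor, lies within Itga1 and shares no exon bases with it. The 4 other genes tested within 500 kb on either side of the pair had small log2 differences. They were 0.12 ± 0.09 for Ndufs4 (edgeR adjusted p = 0.302), -0.02 ± 0.08 for Mocs2 (0.884), -0.21 ± 0.12 for Pelo (0.197) and -0.28 ± 0.07 for Fst (0.000125). Fst, which encodes the activin antagonist follistatin, fell, and the other 3 did not pass the test. An annotated gene on the same strand, Gm49395, which was not counted separately, shares 685 exon bases with Itga1, so reads there could belong to either.

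**Figure D3:**
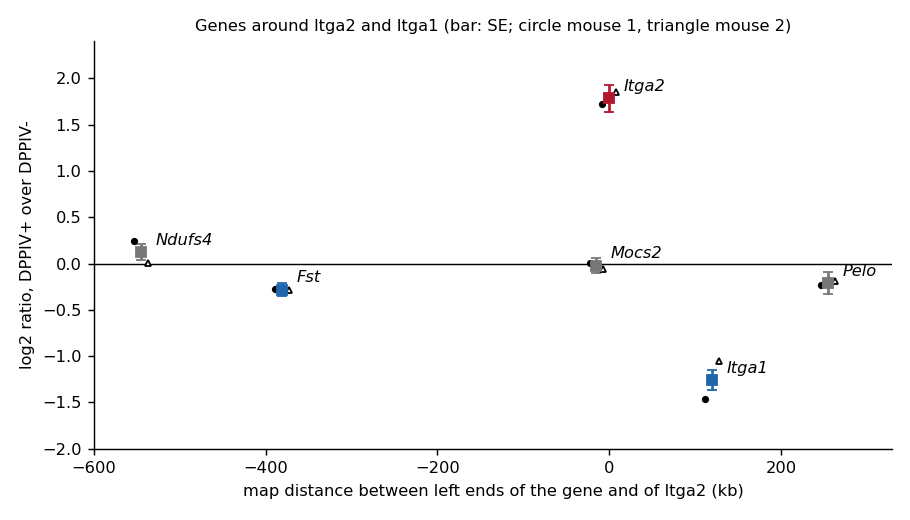
Fitted log2 ratio of DPPIV+ over DPPIV- FAPs (square, bar for the SE) and ratio per mouse (circle and triangle) of the genes tested around Itga2 and Itga1, against the map distance in kb from the left end of Itga2. Itga2 at 1.79 and Itga1 at -1.26 stand apart from the 4 others, which lie between -0.28 and 0.12.

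The promoters of Itga1 and Itga2 are shown because the genes are adjacent and changed in opposite directions, and that of Itgb7 because it had the largest rise among the tested members. Promoter sequences of 300 bases, from 250 before to 50 after the gene start, were found in the RefSeq table (GRCm38.p6) for 23 of the 36 members. All 3 are on the minus strand and are written 5′ to 3′. Their positions are chr13:115101915-115102214 for Itga1, chr13:114932051-114932350 for Itga2 and chr15:102231886-102232185 for Itgb7. Matches on either strand were sought to several short motifs and are marked by capitals. The core promoter element was searched as TATAAA. The box bound by Sp1 was searched as GGGCGG. For AP-1 the letters were TGANTCA, for TEAD factors they were GGAATG, and for RUNX factors they were TGTGGT.
Itga1: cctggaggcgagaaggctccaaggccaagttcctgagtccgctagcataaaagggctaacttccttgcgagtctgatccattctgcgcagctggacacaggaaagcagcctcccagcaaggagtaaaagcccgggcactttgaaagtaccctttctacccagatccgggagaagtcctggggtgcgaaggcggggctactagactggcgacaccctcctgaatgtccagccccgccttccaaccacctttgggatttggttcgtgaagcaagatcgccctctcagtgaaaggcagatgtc
Itga2: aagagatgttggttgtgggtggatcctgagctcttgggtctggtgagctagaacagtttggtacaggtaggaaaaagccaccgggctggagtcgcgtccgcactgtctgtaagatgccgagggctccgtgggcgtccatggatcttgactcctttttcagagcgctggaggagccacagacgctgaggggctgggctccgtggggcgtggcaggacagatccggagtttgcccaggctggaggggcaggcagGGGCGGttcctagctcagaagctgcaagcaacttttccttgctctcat
Itgb7: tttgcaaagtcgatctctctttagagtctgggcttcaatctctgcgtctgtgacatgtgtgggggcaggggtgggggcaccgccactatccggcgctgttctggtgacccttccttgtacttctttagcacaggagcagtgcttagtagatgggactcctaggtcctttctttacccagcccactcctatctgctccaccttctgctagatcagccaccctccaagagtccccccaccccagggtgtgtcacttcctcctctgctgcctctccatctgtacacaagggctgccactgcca
Of these motifs only the Sp1 box was matched, once, in the promoter of Itga2. Among 32544 distinct promoters of this length, 35.9% held the Sp1 box, 13.6% the core promoter element, 7.79% the AP-1 motif, 14.6% the TEAD motif and 16.7% the RUNX motif. The GC content was 56.7% for Itga1, 59.3% for Itga2 and 56.3% for Itgb7, against a median of 53.0% over all of them.

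Itga11, which encodes the main receptor of fibroblasts for fibrillar collagen, was the most abundant alpha subunit per length in both groups. It was measured at 372 and 359 CPM in DPPIV- and at 549 and 532 CPM in DPPIV+ FAPs. The groups did not overlap, and the log2 difference was 0.56 ± 0.07 (edgeR adjusted p = 2.46e-15, DESeq2 adjusted p = 4.25e-09). Its size was below the 1.5-fold change of the stricter test, under which it was not called. Itga10, known from cartilage, was measured at 5.16 and 6.90 CPM in DPPIV- and at 5.83 and 8.39 CPM in DPPIV+ FAPs, the groups overlapped, and the difference did not pass the test (0.23 ± 0.19, edgeR adjusted p = 0.383). Gm42957, an annotated gene on the same strand that was not counted separately, shares 1739 exon bases with Itga10, so reads there could belong to either.

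The laminin-binding subunits Itga6 and Itga7 both fell, and Itga3 was below the filter. Itga7, known from muscle fibres and vascular smooth muscle, was measured at 4.78 and 6.13 CPM in DPPIV- and at 1.89 and 2.69 CPM in DPPIV+ FAPs. Its groups did not overlap, and it fell by 1.26 ± 0.24 on the log2 scale (edgeR adjusted p = 1.31e-06, DESeq2 adjusted p = 0.0202). Without the DPPIV+ library of mouse 1, and with cell type alone in the model, the log2 difference was -1.02 and the edgeR adjusted p was 0.0906, so that the call was lost while the direction stayed. Itga6 was measured at 9.27 and 7.36 CPM in DPPIV- and at 4.50 CPM in both DPPIV+ libraries. Its groups did not overlap and it fell by 0.88 ± 0.19 (edgeR adjusted p = 2.7e-05), whereas DESeq2 gave an adjusted p of 0.0506. The call was also lost when the DPPIV- library of mouse 1 (adjusted p = 0.0773), the DPPIV+ library of mouse 1 (0.0756) or the DPPIV+ library of mouse 2 (0.08) was left out of the edgeR fit. Itga3 had 23 and 19 reads in DPPIV- and 8 and 29 reads in DPPIV+ FAPs, which went in opposite directions in the 2 mice.

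Among the subunits that bind the RGD motif of fibronectin and similar ligands, Itga8 stood out. Its product pairs with beta1 and binds nephronectin and fibronectin. Itga8 (chr2:12106632-12301922, minus strand) was measured at 20.4 and 18.0 CPM in DPPIV- and at 3.55 and 4.61 CPM in DPPIV+ FAPs. The DPPIV+ libraries were both far below the DPPIV- ones, and the gene fell by 2.23 ± 0.16 on the log2 scale (edgeR adjusted p = 1.89e-43, DESeq2 adjusted p = 1.06e-14). An antisense gene that shares 372 exon bases with it, E030013I19Rik, had at most 1 read in a library. Itga5, the fibronectin receptor subunit, was measured at 277 and 337 CPM in DPPIV- and at 243 and 293 CPM in DPPIV+ FAPs. These groups overlapped, since mouse 2 was the higher mouse in both, and only within each mouse was the DPPIV+ library the lower one. The difference was -0.20 ± 0.07 (edgeR adjusted p = 0.0135, DESeq2 adjusted p = 0.177). Leaving out any 1 of the 4 libraries ended the call, with edgeR adjusted p between 0.0843 and 0.877. Itgav, the alpha subunit shared by beta1, beta3, beta5, beta6 and beta8, was measured at 122 and 127 CPM in DPPIV- and at 136 and 135 CPM in DPPIV+ FAPs, and this difference did not pass the test (0.12 ± 0.07, edgeR adjusted p = 0.164).

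Itga9, whose product binds tenascin-C, osteopontin and VCAM-1, was measured at 82.3 and 105 CPM in DPPIV- and at 124 and 143 CPM in DPPIV+ FAPs. The groups did not overlap and it rose by 0.51 ± 0.07 (edgeR adjusted p = 7.36e-14, DESeq2 adjusted p = 5.72e-05). Without the DPPIV+ library of mouse 2 it was not called (edgeR adjusted p = 0.166). Its close relative Itga4, known from leukocytes, was measured at 3.44 and 1.79 CPM in DPPIV- and at 2.94 and 2.41 CPM in DPPIV+ FAPs. It went down in mouse 1 and up in mouse 2, and did not pass the test (0.06 ± 0.26, edgeR adjusted p = 0.909). Cerkl, a gene on the opposite strand with between 12 and 19 reads, shares 1124 exon bases with Itga4, so that reads there are uncertain.

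Itgb7 showed the largest difference of all tested members. The beta7 subunit is known from lymphocytes, where it pairs with alpha4 to bind MAdCAM-1 or VCAM-1, or with alphaE to bind cadherin-1. Itgb7 (chr15:102215995-102231944, minus strand) was counted with 134 reads (mouse 1) and 55 reads (mouse 2) in DPPIV- FAPs, against 1142 and 942 reads in DPPIV+ FAPs. These correspond to 6.40 and 2.81 CPM in DPPIV- and 63.4 and 51.7 CPM in DPPIV+ FAPs. Both DPPIV+ libraries lay far above both DPPIV- libraries, and within the DPPIV- group mouse 1 was the higher. Itgb7 rose by 3.65 ± 0.11 on the log2 scale (edgeR adjusted p = 2.08e-227, DESeq2 adjusted p = 2.67e-16), by 3.31 in mouse 1 and 4.20 in mouse 2. The DPPIV- level of mouse 1 was 2.28 times that of mouse 2 for Itgb7 and 2.26 times for Dpp4, and whether cells of the other gate had a part in it was not tested.

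The known partners of beta7 were rare in both groups. Per length, Itgb7 stood at 20.8 RPKM in DPPIV+ FAPs against 0.192 RPKM for Itga4. The gap was smaller in mean CPM (57.55 against 2.68), since the annotated exon length is 2770 bases for Itgb7 and 13978 for Itga4. Itgae, which encodes alphaE, had between 0 and 3 reads per library. The ligand gene Madcam1 had 1 read in 1 library, and cadherin-1 (Cdh1) had 2 or 3 reads in each. Leukocyte markers were measured beside Itgb7. The summed level of the 8 leukocyte markers was 379 and 217 CPM in DPPIV- and 240 and 207 CPM in DPPIV+ FAPs, and edgeR called none of them higher and 5 lower, while DESeq2 called none. The leukocyte integrin genes, of which Itgal, Itgam, Itgax and Itgb2 were tested, gave 46.3 and 29.2 CPM in DPPIV- and 34.7 and 27.7 CPM in DPPIV+ FAPs when summed. Of the 4, only Itgb2 was called lower (edgeR adjusted p = 0.0499), its groups overlapped, and DESeq2 did not call it (adjusted p = 0.543). Both sums were highest in the DPPIV- library of mouse 1, where Itgb7 was at 6.40 CPM, and within each group both sums and Itgb7 were higher in mouse 1 than in mouse 2. The part of leukocytes in the level of Itgb7 was not tested.

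The other tested beta subunits had smaller fitted differences. Itgb3, which pairs with alphav as a vitronectin receptor, was measured at 69.1 and 68.9 CPM in DPPIV- and at 119 and 116 CPM in DPPIV+ FAPs. The groups were far apart relative to the spread within each, and the gene rose by 0.77 ± 0.07 (edgeR adjusted p = 7.66e-30, DESeq2 adjusted p = 6.71e-10). Itgb8, whose alphav heterodimer activates latent TGF-beta, was measured at 5.83 and 3.63 CPM in DPPIV- and at 2.56 and 2.47 CPM in DPPIV+ FAPs. It fell by 0.89 ± 0.24 in edgeR (adjusted p = 0.00102), but DESeq2 did not call it (adjusted p = 0.21) and neither did edgeR without the DPPIV- library of mouse 1 (0.369), the DPPIV+ library of mouse 1 (0.203) or the DPPIV+ library of mouse 2 (0.236). Itgb1, the common partner of most alpha subunits, was measured at 783 and 793 CPM in DPPIV- and at 735 and 766 CPM in DPPIV+ FAPs. Its log2 difference was -0.07 ± 0.07 (edgeR adjusted p = 0.503). Itgb5, a further partner of alphav, was measured at 412 and 395 CPM in DPPIV- and at 390 and 403 CPM in DPPIV+ FAPs, with a difference of -0.03 ± 0.07 (edgeR adjusted p = 0.815).

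A pair of beta subunits known from epithelium lay below the filter. Itgb6 had 1 and 2 reads in DPPIV- and 24 and 33 reads in DPPIV+ FAPs. The ratio of the groups was 27.9 in mouse 1 (95% exact counting interval 4.55 to 1148) and 17.7 in mouse 2 (4.53 to 152), intervals that cover counting error only. Both DPPIV+ libraries were above both DPPIV- libraries, and with no level filter edgeR gave an adjusted p of 4.32e-07. Itgb4 had 52 and 38 reads in DPPIV- and 33 and 20 reads in DPPIV+ FAPs. Of 5 epithelial markers (Epcam, Krt5, Krt14, Krt8 and Krt18), 4 had no read in any library and Epcam had 2 reads in the DPPIV- library of mouse 2. A further keratin gene, Krt19, which was listed with the perineurial markers, had 7 and 3 reads in DPPIV- and 30 and 20 reads in DPPIV+ FAPs, the same direction as Itgb6 (with no level filter, log2 difference 2.49, edgeR adjusted p = 0.000714). The part of cells that express Krt19 in the level of Itgb6 was not tested.

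**Figure D4:**
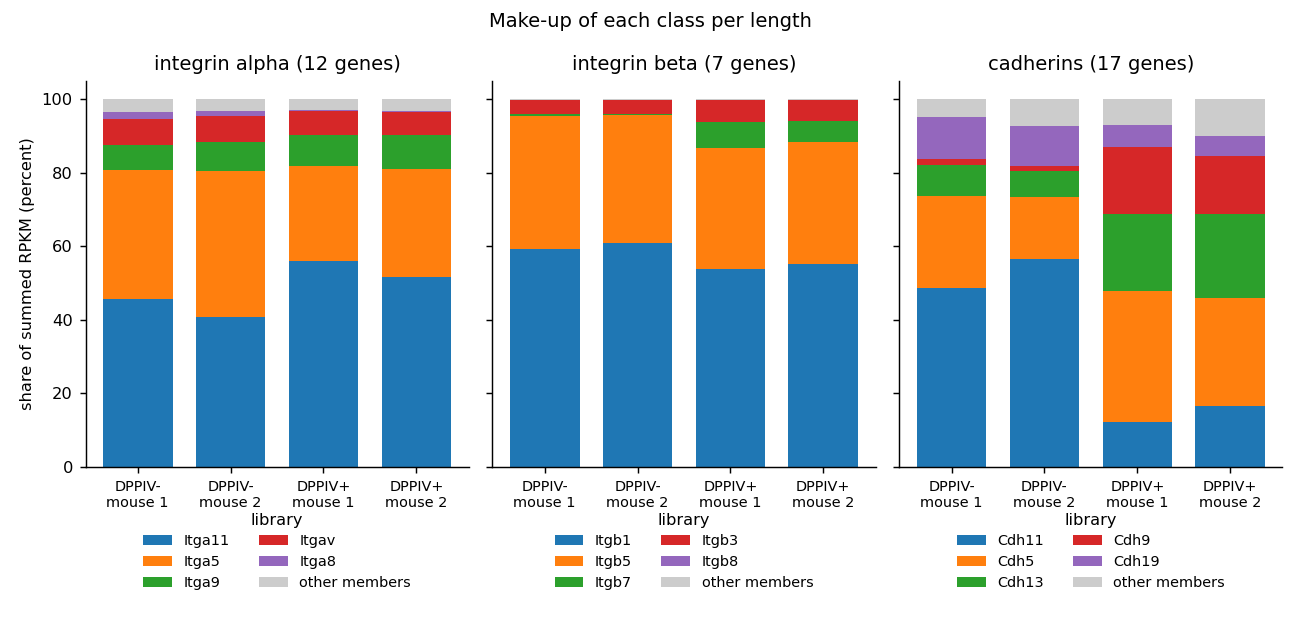
Share of the summed RPKM of 12 alpha subunits, 7 beta subunits and 17 cadherins taken by the leading members in each library, as stacked bars that reach 100%. Itga11 and Itga5 together make up most of the alpha subunits and Itgb1 and Itgb5 most of the beta subunits in every library. The leading cadherin by share changes from Cdh11 in DPPIV- to Cdh5 in DPPIV+ FAPs. The level of Cdh5 itself was not higher in DPPIV+ FAPs (mean 3.75 RPKM in DPPIV- and 2.98 RPKM in DPPIV+), while the cadherin sum fell.

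Compared per length, the integrin classes kept their leading members. The summed level of the 12 alpha subunits was 165 RPKM in DPPIV- and 196 RPKM in DPPIV+ FAPs, and that of the 7 beta subunits was 321 and 337 RPKM. Itga11 made up 43.2% ± 3.40 (SD, n = 2) of the alpha sum in DPPIV- and 53.8% ± 3.16 in DPPIV+ FAPs, and Itga5 37.6% ± 3.20 and 27.7% ± 2.69. Itgb1 made up 60.2% ± 1.05 of the beta sum in DPPIV- and 54.6% ± 0.86 in DPPIV+ FAPs. Itgb7 went from 0.517% ± 0.281 to 6.18% ± 0.971, which placed it above Itgb3 (6.07%) in mouse 1 and below it (5.78%) in mouse 2. These shares are given as a description, without a test.

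The cadherins had a lower summed level than either integrin class. The summed level of the 17 cadherins was 17.3 and 18.7 RPKM in the DPPIV- libraries of mouse 1 and mouse 2 and 9.57 and 8.71 RPKM in the DPPIV+ libraries, so that both DPPIV+ libraries lay below both DPPIV- libraries. Cdh11 made up 52.6% ± 5.44 of it in DPPIV- and 14.4% ± 3.04 in DPPIV+ FAPs.

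Cdh11, the mesenchymal cadherin of fibroblasts, was the tested member with the largest fall. Cdh11 (chr8:102632095-102785642, minus strand) had 1575 and 1843 reads in DPPIV- and 188 and 234 reads in DPPIV+ FAPs, or 75.3 and 94.2 CPM against 10.4 and 12.8 CPM. Both DPPIV+ libraries were far below the DPPIV- ones, and the mice gave nearly the same ratio. It fell by 2.86 ± 0.09 on the log2 scale (edgeR adjusted p = 3.48e-229, DESeq2 adjusted p = 2.25e-75), by 2.85 in mouse 1 and by 2.88 in mouse 2. Cdh19, a type II cadherin known from nerve-associated glia, was measured at 8.46 and 8.69 CPM in DPPIV- and at 2.50 and 2.08 CPM in DPPIV+ FAPs. Its groups did not overlap and it fell by 1.90 ± 0.22 (edgeR adjusted p = 8.57e-17, DESeq2 adjusted p = 4.13e-06).

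Cdh9 moved the other way. This type II cadherin, known from neurons, had 22 and 19 reads in DPPIV- and 112 and 89 reads in DPPIV+ FAPs, or 1.05 and 0.97 CPM against 6.22 and 4.88 CPM. The DPPIV+ libraries were both higher, and Cdh9 rose by 2.45 ± 0.28 (edgeR adjusted p = 1.13e-17, DESeq2 adjusted p = 5.06e-06). Its share of the cadherin sum went from 1.59% to 17.1%. Cdh13 (T-cadherin), which has a lipid anchor in place of a cytoplasmic tail and binds adiponectin, was measured at 16.5 and 14.7 CPM in DPPIV- and at 22.4 and 22.3 CPM in DPPIV+ FAPs. It rose by 0.52 ± 0.11 without overlap (edgeR adjusted p = 1.57e-05), whereas DESeq2 gave an adjusted p of 0.0563. Leaving out the DPPIV+ library of mouse 1, the DPPIV- library of mouse 2 or the DPPIV+ library of mouse 2 ended the call, with edgeR adjusted p between 0.0525 and 0.0729.

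Cdh5, the cadherin of endothelial junctions, was measured at 18.1 and 13.4 CPM in DPPIV- and at 14.3 and 10.7 CPM in DPPIV+ FAPs. The groups overlapped, with mouse 1 the higher in each. Its difference was -0.33 ± 0.13 (edgeR adjusted p = 0.0346), which DESeq2 did not call (adjusted p = 0.498) and which was lost whichever of the 4 libraries was left out (edgeR adjusted p between 0.0756 and 0.839). Leaving Tek aside, the 7 other endothelial markers summed to 57.7 and 29.1 CPM in DPPIV- and to 31.4 and 28.5 CPM in DPPIV+ FAPs. Of them 4, Pecam1, Kdr, Egfl7 and Erg, were called lower by edgeR and none by DESeq2. Pecam1 had log2 ratios of -0.80 in mouse 1 and -0.0005 in mouse 2, and Kdr of -0.95 and 0.10. Egfl7 and Erg fell in both mice, but Erg passed the level filter only through its DPPIV- libraries. The part of these markers in the level of Cdh5 was not tested. Tek, the angiopoietin receptor, was higher in DPPIV+ FAPs (1.42 ± 0.07, edgeR adjusted p = 2.59e-90) and did not move with the rest of this list.

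The remaining cadherins were low or not detected. Cdh2 (N-cadherin), of neural and mesenchymal cells, was measured at 2.05 and 2.91 CPM in DPPIV- and at 3.00 and 3.07 CPM in DPPIV+ FAPs, and did not pass the test (0.30 ± 0.26, edgeR adjusted p = 0.426). Cdh3 (P-cadherin) had 10 and 29 reads in DPPIV- and 3 and 2 reads in DPPIV+ FAPs, and the DPPIV- over DPPIV+ ratio was 2.87 in mouse 1 (95% exact counting interval 0.738 to 16.2) and 13.5 in mouse 2 (3.42 to 117). With no level filter it had an edgeR adjusted p of 0.00757, and most of its reads came from 1 library, the DPPIV- one of mouse 2. Cdh15 (M-cadherin), of satellite cells, had 16 and 17 reads in DPPIV- and 5 and 8 reads in DPPIV+ FAPs, whereas the satellite cell gene Pax7 had between 7 and 10 reads in each library. Cdh4 (R-cadherin) had 27 and 48 reads in DPPIV- and 15 and 27 reads in DPPIV+ FAPs. Cdh6, Cdh10 and Cdh22 had at most 5 reads in a library, and Cdh8, Cdh16, Cdh18 and Cdh20 had none. A count of 0 allows a level of up to 0.143 to 0.167 CPM in these libraries (3 counts), so that a lower level would not have been detectable.

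Markers of cells that also use some of these members moved as well. Mural cells, which surround small vessels, use Itga1, Itga7 and Itga8. The 7 mural markers summed to 151 and 152 CPM in DPPIV- and to 55.6 and 70.6 CPM in DPPIV+ FAPs, and 6 of 7 were called lower by edgeR and 4 by DESeq2, with Abcc9 at -2.36, Notch3 at -1.60 and Kcnj8 at -1.32 as the largest falls. Kcnj8 passed the level filter only through its DPPIV- libraries, so its call was favoured by the filter. Among the other 4, Cspg4 (-1.27), Mcam (-0.82) and Rgs5 (-0.42) were lower, and DESeq2 did not call Mcam or Rgs5. Myh11 did not pass the test (-0.56 in mouse 1 and 0.04 in mouse 2). The 6 called mural genes moved in the same direction as Itga1, Itga7 and Itga8, and their part in those falls was not tested.

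Glial markers did not move as 1 group. The sum of 4 of them, Ngfr, S100b, Mbp and Sox10, was 16.5 and 14.9 CPM in DPPIV- and 13.7 and 15.6 CPM in DPPIV+ FAPs, which overlapped. By edgeR, Ngfr (-3.31) and S100b (-1.25) fell as Cdh19 did, Mbp rose by 0.63, and Sox10 had between 7 and 30 reads. DESeq2 called Ngfr (adjusted p = 0.000953) and S100b (0.0294) but not Mbp (0.101). Of 5 perineurial markers, Cldn1 fell by 1.68 on the log2 scale and Slc2a1 did not pass the test, and the other 3 were below the filter. With no level filter Krt19 was higher, as given above, Tenm2, with 11 and 8 reads in DPPIV- and 1 and 0 reads in DPPIV+ FAPs, was lower (edgeR adjusted p = 0.0383), and Lypd2 had between 10 and 18 reads. Ngfr and Cldn1 passed the level filter only through their DPPIV- libraries, so their calls were favoured by the filter. The part of glial or perineurial cells in the fall of Cdh19 was not tested. Of 5 platelet markers, 3 were tested by edgeR. Gp1bb was higher by 0.66 on the log2 scale (edgeR adjusted p = 0.0318), as Itgb3 was, Pf4 was lower (-0.75, adjusted p = 0.014), and Itga2b, which encodes the platelet partner of beta3, did not pass the test (0.11, adjusted p = 0.579). DESeq2 called none of the 3, Gp9 had no read in any library and Ppbp had 2 reads in 1 library. Their part in the rise of Itgb3 was not tested. Of 5 tendon cell markers, Tnmd (log2 difference 1.3), Scx (2.1), Mkx (1.4) and Kera (1.7) were higher in DPPIV+ FAPs. Scx passed the level filter only through its DPPIV+ libraries. Thbs4 was called lower by edgeR, but it went down in mouse 1 (-0.47) and slightly up in mouse 2 (0.08). DESeq2 did not call Thbs4 (adjusted p = 0.851). In the DPPIV+ libraries of mouse 1 and mouse 2, Tnmd was at 53.0 and 89.5 CPM and Scx at 3.7 and 7.8 CPM. Mkx was at 3.4 and 7.7 CPM there, Kera at 35.3 and 68.2 CPM, and Itga11 at 549 and 532 CPM. The part of tendon cell markers in the rise of Itga11 was not tested. The 5 muscle fibre markers did not pass the edgeR test. Of 5 satellite cell markers, 2 were tested. Des was called lower by edgeR but not by DESeq2 (adjusted p = 0.527), and Chodl was not called.

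**Figure D5:**
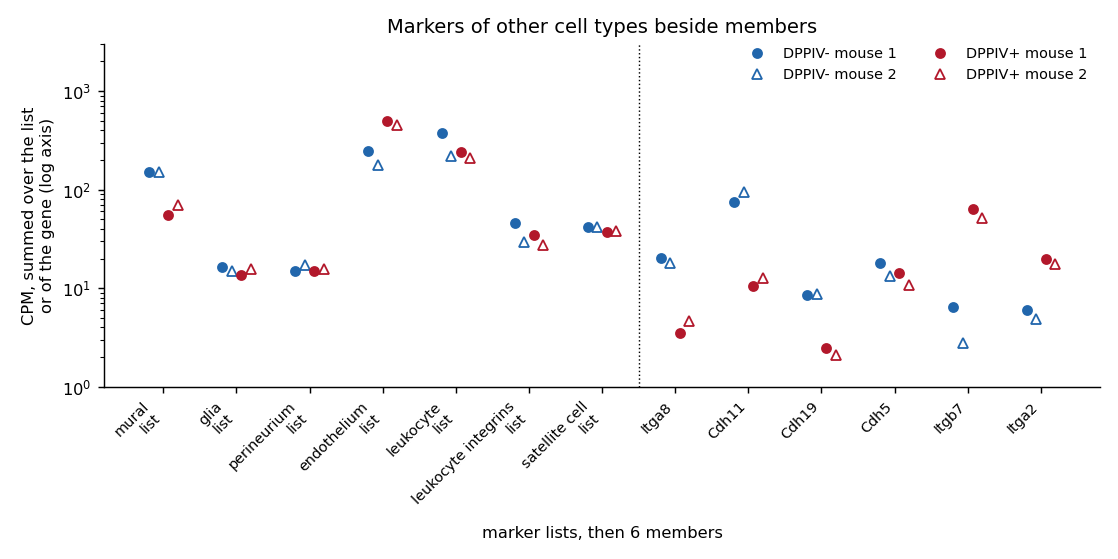
CPM summed over 7 marker lists of other cell types (for glia, over the 4 genes named above), and CPM of 6 members, in each library (log axis, symbols and colours by mouse and group). The mural sum is lower in both DPPIV+ libraries, as Itga8 is, the endothelial sum is carried by Tek, and the leukocyte sums are highest in the DPPIV- library of mouse 1, while Itgb7 is higher in DPPIV+ FAPs and, within each group, in mouse 1.

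The adaptors that connect integrins to actin and signalling moved in both directions. Of 34 adaptor and kinase genes counted, 30 were tested, and 8 were higher, 6 lower and 16 not past the threshold by edgeR, and 6 were higher and 4 lower by DESeq2. The 14 edgeR calls are 46.7% of the genes tested, beside 33.0% over all genes. Among the proteins nearest to the integrin tail, Pxn (paxillin, 0.54 ± 0.07) and Fermt2 (kindlin-2, 0.21 ± 0.07) rose and Tln2 (talin-2, -0.55 ± 0.07) fell by edgeR, while Tln1 (talin-1), Ilk, Parva, Lims1, Ptk2 and Vcl did not pass the test. Zyx (zyxin, 174 CPM in DPPIV- and 413 CPM in DPPIV+ FAPs, log2 difference 1.25 ± 0.07) and Lims2 (PINCH-2, 0.84 ± 0.07) were among those that rose. Fblim1 (migfilin, 10.9 and 2.62 CPM, -2.06 ± 0.20), Actn1 (alpha-actinin-1, 72.1 and 25.5 CPM, -1.51 ± 0.08) and Tns3 (tensin-3, -1.26 ± 0.09) had the largest falls. Tns1 and Tns2 rose whereas Tns3 fell, so that the tensin genes did not move together.

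Catenins and other cadherin partners moved in both directions. Of 14 genes, 11 were tested, with 3 higher and 3 lower by edgeR (54.5% called, beside 33.0% over all genes) and 2 higher and 1 lower by DESeq2 (beside 16.6% over all genes). By edgeR, Arvcf (0.99 ± 0.09), Lima1 (0.30 ± 0.07) and Limd1 (0.19 ± 0.07) rose. Jup (plakoglobin, -0.55 ± 0.07), Ctnnal1 (-0.50 ± 0.15) and Pkp4 (-0.46 ± 0.16) fell. DESeq2 did not call Limd1 (adjusted p = 0.404), Ctnnal1 (0.272) or Pkp4 (0.434). The tails of type I and type II cadherins bind beta-catenin and p120 catenin. The genes for beta-catenin (Ctnnb1, -0.14 ± 0.07), p120 catenin (Ctnnd1, 0.06 ± 0.07) and alpha-catenin (Ctnna1, 0.11 ± 0.07) did not pass the test.

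Among integrin ligands other than collagens and laminins, 25 genes were counted and 22 tested, with 5 higher and 13 lower by edgeR (81.8% called, beside 33.0% over all genes) and 5 higher and 9 lower by DESeq2 (beside 16.6% over all genes), and a median log2 difference of -0.27. Fn1 (fibronectin), the ligand of alpha5beta1 and of the alphav integrins, was the most abundant gene of the list, at 6383 CPM in DPPIV- and 16020 CPM in DPPIV+ FAPs (1.33 ± 0.09, edgeR adjusted p = 2.24e-51). Fbn1 (fibrillin-1, 1.16 ± 0.08) and Nid1 (nidogen-1, 0.63 ± 0.08) also rose. The largest falls were of Vcam1 (-1.77 ± 0.07), a ligand of alpha4 and alpha9 integrins, of Icam1 (-1.32 ± 0.07), a ligand of leukocyte integrins, and of Spp1 (osteopontin, -1.04 ± 0.07). Spp1 differed between the mice (-1.65 in mouse 1 and -0.44 in mouse 2) and was not called by DESeq2 (adjusted p = 0.284). The ligand of alpha8beta1, nephronectin (Npnt), had between 8 and 24 reads.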

How the data were processed

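The deposited table holds read counts per gene. Per the labels and the methods of the study, the authors demultiplexed paired-end reads with bcl2fastq, used STAR for alignment against mm10, and derived per-gene counts with RnaReadCounter. The annotation release and strand setting are not given in the sources used here, and the labels and the methods name different stranded mRNA kits, so reads of antisense neighbours remain uncertain. The 36 members and all other gene lists were chosen with earlier results of these data known.

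From the counts, the 11588 of 24421 genes that reached 2 CPM in 2 or more libraries were used. edgeR 4.0.16 (R 4.3.3) fitted them with TMM scaling, mouse and cell type, by the quasi-likelihood F test with Benjamini-Hochberg adjustment, two-sided, at 0.05. The study's own test, DESeq2 (1.42.0), was an alternative. The SE is that implied by the F statistic. Libraries were paired by mouse, as the labels give 1 animal number to each pair (correlation of their deviations from the group means 0.415). All members are named, and of each other list the 3 largest called changes in each direction, marker genes by list and Dpp4. A few genes of these lists are not reported here. Genes outside this rule that are named as core adaptors, catenins, ligands or neighbours of a member were chosen after their values were seen. CPM are TMM-scaled, and RPKM use GENCODE M21 exon lengths. Depth was 18240110 to 20879405 counts per library. No stretch of at least 80 bases with 97% identity to another counted gene was found in a member, apart from shared exons of Itga4 and Itga8. Other alternatives were filters, scalings, tests and thresholds, and leaving out single libraries was added after seeing the data. The scripts' tests were checked on simulated data. The samples are separate sorts from 2 animals.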

Additional observations from a re-analysis of the deposited data

How the results depend on the processing

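The test uses 2 mice and the depth given above, and members under about 2 CPM were not tested, so a small change of a rare member would not have been seen. With the replicate block (the mouse) edgeR called 7 members higher and 9 lower. Without the replicate block it called 7 higher and 6 lower, Itga5, Itgb8 and Cdh5 being the calls lost. DESeq2 called 5 lower, and a test against a change of 1.5-fold called 4 higher and 5 lower. Leaving out 1 library, with cell type alone in the model, left 1 library in 1 of the groups. In each of these fits fewer members were called lower than in the main fit, and fewer of all genes were called in each direction. These fits also lose the mouse term and 1 sample. Itgb3, Itgb7, Itga1, Itga2, Itga8, Cdh9, Cdh11 and Cdh19 were called in every alternative that tested them and without each library (8 of 16 calls). How large a share of the calls over all genes would be kept in this way was not computed. Over all genes, the 1837 higher and 1989 lower calls were 923 and 995 by DESeq2, 1001 and 1119 without the replicate block, and 436 and 656 in the test against 1.5-fold. No member reversed its direction in an alternative in which it was called.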
